A study of Mus musculus with 15 samples.

Results

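The cytosolic ribosomal protein genes encode the proteins of the cytoplasmic ribosome. They were taken as the rows of the gene table whose mouse symbol is Rps or Rpl (or Rplp) followed by a number with its usual suffix letters, together with Rpsa. Numbered -ps pseudogene rows and the kinases that share the Rps prefix were left out. The rule found 89 genes among 35533 gene rows, 36 with a small subunit (Rps) and 53 with a large subunit (Rpl) symbol. Of the 89, 83 are annotated as protein coding and 6 as processed pseudogenes with a gene symbol of their own (Rpl32l, Rpl6l, Rps12l1, Rps3a2, Rps3a3 and Rps4l). They lie on 19 chromosomes, with 4 on X.

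Poly(A) RNA of sorted murine hematopoietic stem cells (HSCs, the Lin-Sca1+c-Kit+CD150+CD48- cells of the bone marrow) was sequenced from 5 genotypes with 3 libraries each. The genotypes differ in the dose or form of GFI1, a zinc finger protein that represses transcription. Gfi1-WT carries 2 wild-type murine alleles, and Gfi1-KO is homozygous for the loss of Gfi1. GFI1-KI, titled 36S, is homozygous for human GFI1 placed in the murine locus, GFI1-KD is homozygous for a human GFI1 allele with lowered expression, and GFI1-36N is homozygous for the variant form of human GFI1. None of the animals was treated. Age, sex, batch and whether a library came from 1 animal or a pool are not given in the sources used here, so p-values measure the spread between these libraries. The columns of the tables were joined to the titled samples by their running number, and a genotype below is therefore that of the label.

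Ribosomal proteins join ribosomal RNA to form the small subunit, which reads the mRNA, and the large subunit, which makes the peptide bond. Most are needed in equal amounts, and their mRNAs are among the most abundant of a cell. Their transcripts typically start with a C followed by a run of pyrimidines, the 5' terminal oligopyrimidine motif through which mTOR signalling controls their translation. HSCs are known for a low rate of protein synthesis, and loss of single ribosomal protein genes causes Diamond-Blackfan anaemia in humans.

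The start-site sequences below are picked examples. A few abundant members have a long pyrimidine run, and some members that differed most from the rest do not. Other members do not follow that split. The abundant Rpl4 and Rps19 had longest runs of 6 and 4 bases. Rps12 and Rpl22l1, which also departed from the rest, had runs of 11 and 10 bases. Each sequence shown has 30 bases, 10 before the annotated start site and 20 from it on (RefSeq, build GRCm38.p6). It is written 5' to 3' on the strand of the gene, with the longest run of C or T in capitals. Rpl35, at chr2:39005112-39005141 (minus strand), and Rps18, at chr17:33955646-33955675 (minus strand), have runs of 18 and 11 bases. Rps6 is at chr4:86857348-86857377 (minus strand), Rpl13a at chr7:45128726-45128755 (minus strand) and the paralog Rpl22l1 at chr3:28805498-28805527 (plus strand). Rplp0 is at chr5:115559457-115559486 (plus strand), Rpl7l1 at chr17:46782637-46782666 (minus strand) and Rps3a1 at chr3:86142649-86142678 (minus strand).
Rpl35: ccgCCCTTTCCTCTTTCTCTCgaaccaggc
Rps18: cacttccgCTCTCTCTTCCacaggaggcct
Rps6: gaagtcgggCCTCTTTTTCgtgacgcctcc
Rpl13a: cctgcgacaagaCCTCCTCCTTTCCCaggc
Rpl22l1: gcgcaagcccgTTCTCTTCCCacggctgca
Rplp0: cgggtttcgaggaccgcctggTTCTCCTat
Rpl7l1: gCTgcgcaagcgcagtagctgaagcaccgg
Rps3a1: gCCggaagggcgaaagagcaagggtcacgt

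A start site was found for 64 of the 89 members. A run of at least 8 C or T stood in the 30-base window of 22 of them (34.4%), against 11.2% of all 27025 genes with a start site, and the median longest run was 6 against 4 bases. The letters CCGGAAG, the core that ETS family factors bind, were present on either strand of the 300-base promoter window (250 bases before the start site and 50 from it on) in 39.1% of members and 9.11% of all genes. The letters AAGATGGC, the core of the YY1 motif, were present in 9.38% and 2.87%, and they can share the letters AAG with the ETS core. These shares describe letters, and no binding was measured. The start sites used by the cells were not measured either. A short run at an annotated site therefore does not show that the transcripts of a member lack the motif.

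The libraries held between 16.2 and 20.7 M (M, 1000000) estimated counts and between 9415 (GFI1-36N replicate 3) and 15125 genes above 0. The summed level of the 13 HSC and gate genes ranged from 1704 to 3431 CPM (counts scaled to a library of 1000000 after TMM adjustment). That of the 6 B cell genes was 953 to 1570 CPM, of which Ebf1 made 879 to 1471, with Pax5 at 0 in all 15 libraries. That of the 8 T and NK cell genes, mostly Nkg7 with Cd3e at 0, was 428 to 525 CPM in GFI1-KD and 313 to 938 in Gfi1-KO, against 239.6 to 289 in GFI1-KI, 153 to 329 in Gfi1-WT and 204 to 285 in GFI1-36N, so that every GFI1-KD library lay above every GFI1-KI library. The 5 stromal and endothelial genes, mostly Pecam1 with Cdh5 at 0, summed to 7.13 to 318 CPM. Gfi1-KO replicate 2 stood apart from the gate, with Cd48 at 502 CPM against at most 46.1 in the other libraries, Slamf1 (CD150) at 1.3, Mpo at 2382, and summed levels of 4015 for the 12 monocyte and granulocyte genes and 1696 for the 5 mast cell and basophil genes, against at most 1686 and 371 elsewhere. Those 2 highest values were both in GFI1-KI replicate 2, which also had Mpo at 839 CPM and whose monocyte and granulocyte sum compares with 548 and 614 in the other GFI1-KI libraries. The 8 erythroid genes summed to 874 CPM in Gfi1-KO replicate 2, against at most 426 elsewhere. The 5 megakaryocyte genes summed to 2642 CPM in Gfi1-KO replicate 3, where Pf4 was at 2068. They summed to 37.8 CPM in Gfi1-KO replicate 2 and to between 345 and 1563 in the remaining libraries. The murine Gfi1 counts did not follow the labels, with 105, 54.5 and 0 in the libraries labelled Gfi1-KO and 4.85, 0 and 0 in those labelled Gfi1-WT. They were 0, 126 and 31.2 in the libraries labelled GFI1-KI, 0, 0 and 267 in GFI1-KD and 422, 73.3 and 0 in GFI1-36N. The murine Gfi1 counts thus do not bear out the match of columns to labels. The murine cDNA reference holds no human GFI1, and the deleted part of Gfi1 was not resolved in these gene counts, so they cannot check the humanized alleles. The Y-linked Eif2s3y lay between 1260 and 4308 counts in GFI1-KD replicates 1 and 3 and GFI1-36N replicates 1 and 2 and at most 10.5 in the other 11 libraries, so Y-linked RNA moved with part of 2 genotypes. Its part, and that of these markers, in the values below was not tested.

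The 89 members held 5.51% of all estimated counts, 2.21% in small and 3.31% in large subunit genes. Levels were compared between members per length (counts divided by transcript length, scaled so that the sum over all genes is 1000000 in a library). Of the 85 members that passed the count filter, 80 lay at 154 or above and 5 at 18.9 or below. Among the highest per-length levels were those of Rpl32 at 4559, Rps14 at 4170, Rps18 at 4112 and Rps6, the small subunit protein phosphorylated downstream of mTOR, at 3479. The lowest were all processed pseudogenes, with Rps4l at 18.9, Rps3a2 at 6.43, Rpl32l at 3.86, Rps3a3 at 1.61 and Rpl6l at 1.23. Among the 80, the median per-length level was 1076 for the 32 small and 963 for the 48 large subunit genes.

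The counts were concentrated in few members. Rpl4, whose protein lines the exit tunnel of the large subunit, alone held 5.94% of the member counts, the 10 highest held 36.3% and the 40 highest 80.6%. The 4 members that did not pass the filter were Rpl3l (above 0 in 2 libraries), Rpl10l (1), Rpl39l (3) and Rps12l1 (0), and 82 members were above 0 in all 15 libraries.

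Most abundant members kept a narrow range. Over the 15 libraries the highest level exceeded the lowest by 1.48-fold for Rps7 and by 4.96-fold for Rpl13, with a median of 2.03-fold over the 80 abundant members and 73 of them under 3-fold. The median standard deviation of log2 CPM within a genotype was 0.28 for the 85 members tested, against 2.12 over all 13358 genes tested and 0.39 over the 858 genes with a mean level at or above the lower quartile of members. Fitted fold changes of members therefore had a median standard error of 0.25 log2 units, against 1.62 over all genes.

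The members of a library tended to move together. Gfi1-WT replicate 1 was the lowest library for 36 of the 85 members, GFI1-KI replicate 3 for 15 and GFI1-KI replicate 2 for 12. At the other end, GFI1-36N replicate 3 was the highest library for 28, GFI1-KD replicate 1 for 23 and Gfi1-KO replicate 3 for 11. GFI1-36N replicate 3 was mixed, as it was also the lowest library for 5 members. Its median was 9.20 log2 CPM in small but 8.76 in large subunit genes, the latter below 8.78 in Gfi1-WT replicate 2. The median member level was lowest at 8.37 log2 CPM in Gfi1-WT replicate 1 and highest at 9.04 in Gfi1-KO replicate 2 and GFI1-KD replicate 1. Because of this, the count of members on one side of a comparison does not stand for that many separate observations.

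**Figure D1:**
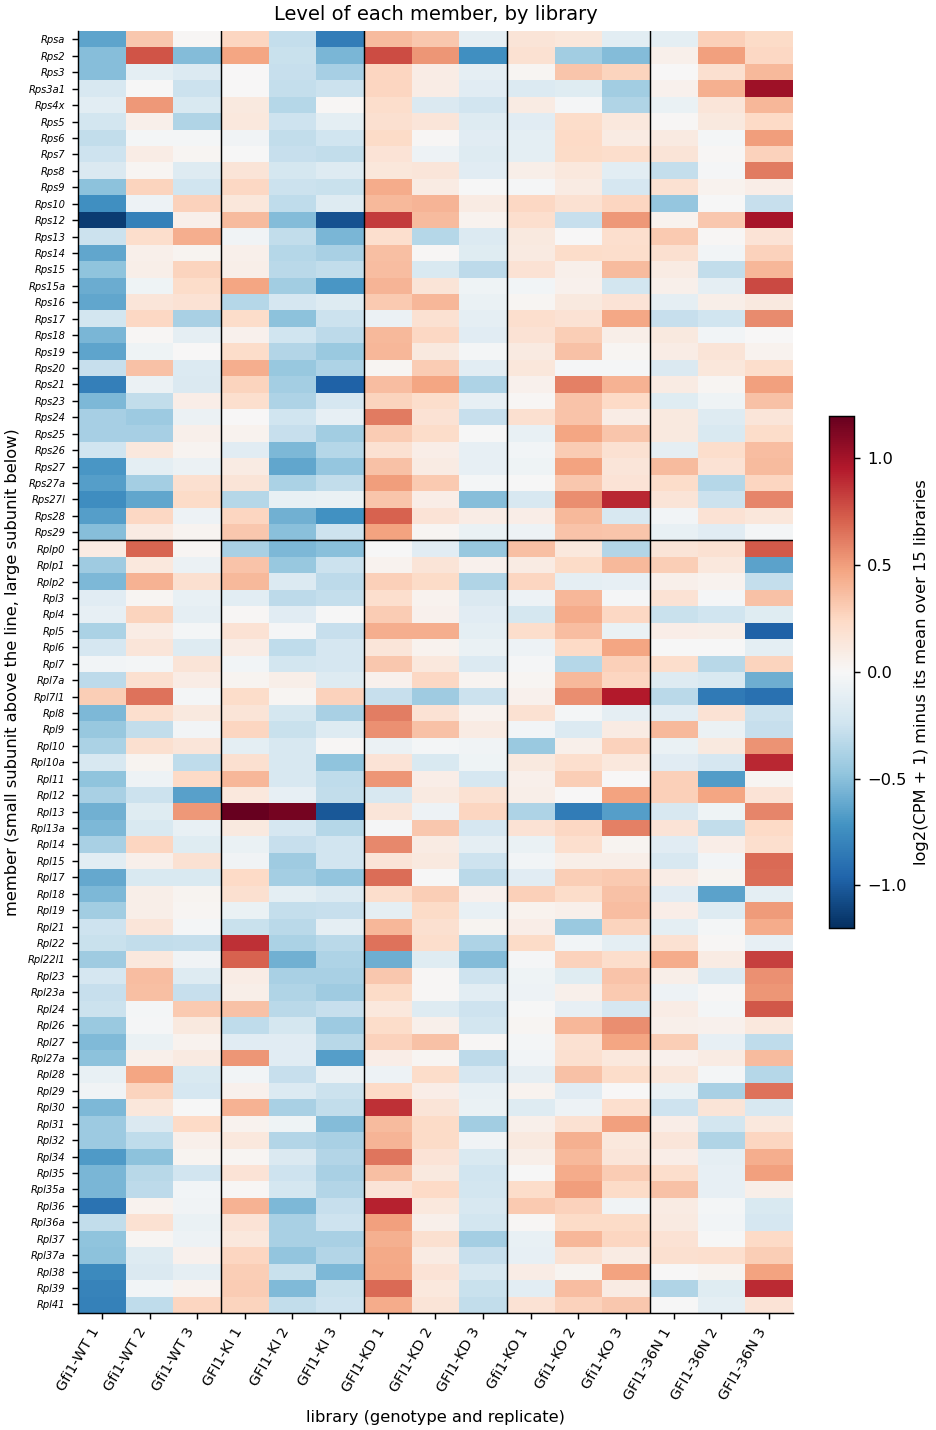
Level of 78 of the 80 abundant members (rows, small subunit genes above the line) in the 15 libraries (columns), as log2(CPM + 1) minus the mean of that member over the libraries; the colour scale is limited to 1.2 in either direction. The Gfi1-WT replicate 1 column is mostly low (the lowest library for 36 of 85 members). The GFI1-36N replicate 3 column is mixed (the highest library for 28 members and the lowest for 5), and single rows such as Rpl7l1 depart from their column.

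The share of a library held by the members was 4.38, 5.61 and 5.45% in Gfi1-WT and 5.93, 4.68 and 4.59% in GFI1-KI. It was 6.49, 6.04 and 5.23% in GFI1-KD, 5.77, 5.79 and 5.34% in Gfi1-KO and 5.72, 5.68 and 6.12% in GFI1-36N. One library of each control genotype differed from the other 2 of its group by more than the group means differed, and the groups overlapped in all 4 comparisons. The mean share was 5.92% ± 0.64 (SD, n = 3) in GFI1-KD against 5.07% ± 0.75 in GFI1-KI, a ratio of 1.17. It was 5.63% ± 0.26 in Gfi1-KO against 5.15% ± 0.67 in Gfi1-WT, a ratio of 1.10, and 5.84% ± 0.25 in GFI1-36N, 1.15 times that of GFI1-KI. In bulk RNA, fewer cells of a type and less RNA per cell cannot be told apart.

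The ratio of small to large subunit counts was 0.600, 0.633 and 0.659 in Gfi1-WT and 0.677, 0.655 and 0.656 in GFI1-KI. It was 0.680, 0.668 and 0.687 in GFI1-KD, 0.668, 0.667 and 0.631 in Gfi1-KO and 0.683, 0.730 and 0.699 in GFI1-36N. The 3 GFI1-36N libraries lay above all 3 GFI1-KI libraries, with means of 0.704 ± 0.024 and 0.663 ± 0.013 (SD, n = 3), and the other 3 comparisons overlapped. Per kilobase of transcript the GFI1-36N and GFI1-KI ratios also did not overlap (0.782 ± 0.025 and 0.747 ± 0.0097), whereas the ratio of the median small to the median large member did (1.22 ± 0.16 and 1.06 ± 0.11). No p-value was computed for these sums over members.

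**Figure D2:**
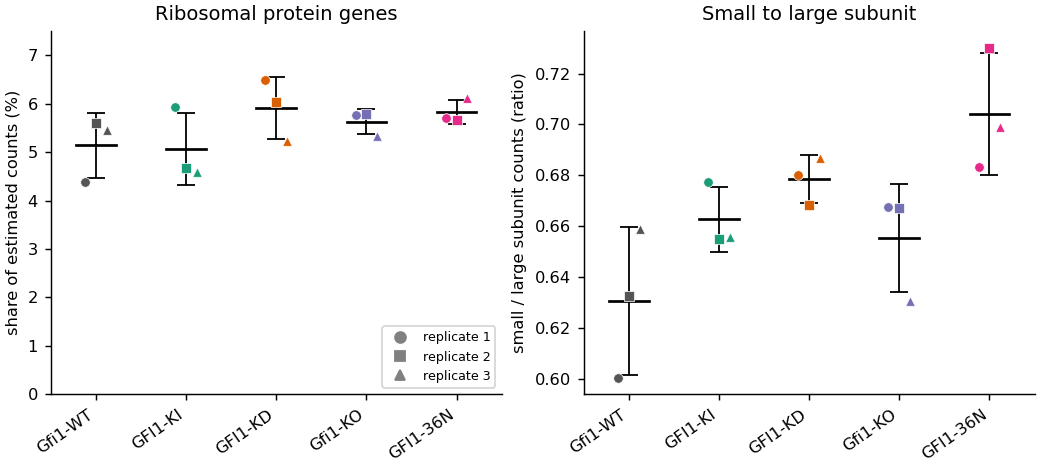
Left, share of the estimated counts of each library in ribosomal protein genes (%), and right, ratio of small to large subunit counts on an axis that does not start at 0, by genotype; points are libraries, and lines and bars are the mean and SD (n = 3). Shares run from 4.38 to 6.49% and overlap between genotypes, and the 3 GFI1-36N ratios, 0.683 to 0.730, lie above the 3 GFI1-KI ratios.

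The dose of human GFI1 was compared in GFI1-KD and GFI1-KI HSCs. No member passed an adjusted p of 0.05 in edgeR's quasi-likelihood test with Benjamini-Hochberg adjustment, and neither did any of the 13358 genes (0%); 2 of 85 members had an unadjusted p under 0.05 (2.49% of all genes). DESeq2 called 181 genes and 0 members, and limma-trend 0 genes. The fitted fold change was above 0 for 78 of the 85 members (49.8% of all genes), for 34 of 35 small and 44 of 50 large subunit genes. Its median was 0.26 on the log2 scale over the members, 0.30 in small and 0.25 in large subunit genes, against 0.00 over all genes. In 5 members, among them Rpl21, Rpl27, Rps16 and Rps26, every GFI1-KD library lay above every GFI1-KI library (4.04% of all genes), and in 2, Rpl7l1 and Rps4l, below (5.05%). The median was 0.15 without GFI1-KD replicate 1 and 0.43 without GFI1-KI replicate 1, and 0, respectively 11, members then had an unadjusted p under 0.05. Without GFI1-KI replicate 2, 74 of 86 members were above 0 with a median of 0.19, and 0 had an unadjusted p under 0.05.

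Rpl21, a large subunit protein, was among the members with the lowest p-values on the higher side, at 1242, 1075 and 959 CPM in GFI1-KD and 779, 751 and 873 CPM in GFI1-KI. The groups did not overlap. The log2 fold change was 0.45 ± 0.21 (SE), with an unadjusted p of 0.0484 and an adjusted p of 1 in edgeR's quasi-likelihood test. Rps16, a small subunit protein near the decoding site, was at 742, 787 and 564 CPM against 469, 519 and 535 CPM, also without overlap, with a log2 fold change of 0.46 ± 0.21. On the lower side, Rpl7l1 (-0.50 ± 0.27), Rpl22l1 (-0.44 ± 0.35) and Rpl13 (-0.66 ± 0.54) had the lowest p-values, 0.0901 to 0.244 before adjustment. Rpl13 was at 258, 237 and 52.1 CPM in GFI1-KI and at 117, 101 and 127 CPM in GFI1-KD, so that 1 GFI1-KI library lay below all others.

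Complete loss was compared in Gfi1-KO and Gfi1-WT HSCs. Again neither a member nor any other gene was below the adjusted p of 0.05 in edgeR's quasi-likelihood test with Benjamini-Hochberg adjustment (0%), and DESeq2 called 196 genes and 0 members. An unadjusted p under 0.05 was found for 11 of 85 members (12.9%), 6 small and 5 large subunit genes, and for 3.07% of all genes. The fitted fold change was above 0 for 69 members, 28 of 35 small and 41 of 50 large (48.1% of all genes), with a median of 0.23 against -0.03 over all genes. In 19 members every Gfi1-KO library was above every Gfi1-WT library (22.4%, against 4.04% of all genes), and in 1, Rps4l, below (4.9% of all genes). These counts rested on single libraries: without Gfi1-WT replicate 1, 57 of 86 members were above 0, the median was 0.13 and 3 had an unadjusted p under 0.05, whereas the median was 0.37 without Gfi1-WT replicate 2. Without Gfi1-KO replicate 2, the library with the highest myeloid, mast cell and erythroid sums, 72 of 86 were above 0 with a median of 0.22, and 4 had an unadjusted p under 0.05.

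Rpl35, which sits beside the exit tunnel and is a Diamond-Blackfan anaemia gene, was at 1852, 2532 and 2296 CPM in Gfi1-KO and 1270.1, 1477 and 1590.0 CPM in Gfi1-WT. All Gfi1-KO libraries were above all Gfi1-WT libraries, with a log2 fold change of 0.62 ± 0.20 (SE), an unadjusted p of 0.00804 and an adjusted p of 1 (edgeR). Its start site carries the longest pyrimidine run of those shown. Rpl13a, which also acts outside the ribosome in translational silencing, was at 1121, 1181 and 1514 CPM against 684, 875 and 935 CPM, without overlap (0.61 ± 0.21). Rps3, at the mRNA entry of the small subunit, followed at 1534, 1897 and 1813 CPM against 1059, 1389 and 1342 CPM (0.47 ± 0.16). The members with the lowest p-values on the lower side were Rps4l, Rpl13 (-0.62 ± 0.54) and Rplp0 (-0.23 ± 0.22), with unadjusted p-values of 0.270, 0.270 and 0.327.

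Rps4l, a transcribed processed pseudogene of the Rps4 family, was at 21, 13.2 and 25 CPM in Gfi1-WT and 29.3, 10.8 and 9.80 CPM in GFI1-KI. It was at 0, 2.55 and 7.47 CPM in GFI1-KD, 5.99, 0 and 0 CPM in Gfi1-KO and 11.4, 0 and 0 CPM in GFI1-36N. Every GFI1-KD and Gfi1-KO library was thus below every library of its own control, while GFI1-36N overlapped GFI1-KI. The fitted difference of Gfi1-KO and Gfi1-WT, -3.30 ± 2.86, has a standard error near its size, and reads of Rps4l and Rps4x can be hard to tell apart.

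The effects of lowered and of lost GFI1 on the members were then compared directly, as the GFI1-KD effect minus the Gfi1-KO effect. No member had an adjusted or unadjusted p under 0.05 in edgeR's quasi-likelihood test, where 401 of the 13358 genes (3%) had an unadjusted p under 0.05, no gene passed after adjustment (0%), and DESeq2 called 199 genes and 0 members. The difference was above 0 for 43 of 85 members (51.1% of all genes) with a median of 0.0022 log2 units. The lowest p was that of Rpl7l1, with a difference of -0.73 ± 0.38 (SE) and an unadjusted p of 0.0785.

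GFI1-KI and Gfi1-WT HSCs, which differ in the species of the GFI1 protein, were compared next, using control libraries that also enter the comparisons above. Of 85 members 39 had a fold change above 0 (50% of all genes), and the median was -0.03. No adjusted p was below 0.05 in edgeR's quasi-likelihood test, for members or any other gene (0%), DESeq2 called 146 genes and 0 members, and 2 members had an unadjusted p under 0.05 (2.09% of all genes). Without overlap, 1 member, Rpl32l, was higher (4.46% of all genes) and 2, Rpl7 and Rplp0, were lower (4.18%). The nearest libraries almost touched for Rpl32l (0.377 CPM in GFI1-KI, 0.342 in Gfi1-WT) and for Rpl7 (999.9 CPM in GFI1-KI, 1001 in Gfi1-WT). The median turned from -0.19 without GFI1-KI replicate 1 to 0.08 without Gfi1-WT replicate 2, and between 9 and 64 members were above 0 when 1 library was left out (51 of 86, with a median of 0.05, without GFI1-KI replicate 2). Rplp0 had the lowest p, with a log2 fold change of -0.78 ± 0.22 and an unadjusted p of 0.00407, and Rps13 was at -0.44 ± 0.25. On the higher side, the processed pseudogene Rpl32l (2.56 ± 1.57) had at most 3.91 CPM in any library, and Rpl13 (0.78 ± 0.54) and Rpl22 (0.47 ± 0.41) had standard errors near their size.

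The variant was compared in GFI1-36N and GFI1-KI HSCs, with the same GFI1-KI libraries as above. No member and no gene passed the adjusted p of 0.05 (0%) in edgeR's quasi-likelihood test with Benjamini-Hochberg adjustment. DESeq2 called 364 genes and 0 members, and limma-trend 2 genes and 0 members. An unadjusted p under 0.05 was found for 10 members (11.8%, against 4.6% of all genes). The fold change was above 0 for 71 of 85 members (46.3% of all genes), 33 of 35 small and 38 of 50 large, with a median of 0.25 against -0.08 over all genes. In 11 members the libraries lay above GFI1-KI without overlap (12.9%, against 3.3% of all genes), 7 of them small subunit genes, and in 3 below (6.27% of all genes), the large subunit genes Rpl7l1, Rpl7a and Rpl4. For Rpl4 the nearest libraries almost touched, at 2951 CPM in GFI1-36N and 2966 in GFI1-KI. Without GFI1-36N replicate 3, the library with the fewest genes above 0, the median was 0.15 and 3 members had an unadjusted p under 0.05, and without GFI1-KI replicate 1 the median was 0.41 with 21 such members. Without GFI1-KI replicate 2, 63 of 86 were above 0 with a median of 0.21, and 4 had an unadjusted p under 0.05.

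Rplp0, the base of the ribosomal stalk that recruits elongation factors, was at 2238, 2277 and 3351 CPM in GFI1-36N and 1537, 1382 and 1425 CPM in GFI1-KI. It was at 2149.5, 3254 and 2042 CPM in Gfi1-WT, 2004, 1836 and 1464 CPM in GFI1-KD and 2590.4, 2195 and 1578 CPM in Gfi1-KO. GFI1-KI had the lowest mean, all GFI1-36N libraries lay above it, and GFI1-36N and Gfi1-WT overlapped. The log2 fold change against GFI1-KI was 0.86 ± 0.22 (SE), with an unadjusted p of 0.00209 and an adjusted p of 0.981 in edgeR's quasi-likelihood test, and 0.64 without GFI1-36N replicate 3.

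Rps3a1, a small subunit protein at the platform near the mRNA exit, was at 1041, 1351 and 2028 CPM in GFI1-36N and 1008, 819 and 839.8 CPM in GFI1-KI. The other genotypes lay between 749 and 1202 CPM. The log2 fold change was 0.73 ± 0.21 (SE), with an unadjusted p of 0.00442 (edgeR), and 0.43 without GFI1-36N replicate 3, whose level was the highest of all 15 libraries. Rpl3, at the peptidyl transferase centre, was at 2372, 2083 and 2682 CPM against 1927, 1688 and 1724 CPM, without overlap (0.42 ± 0.14). Rpl7a was at 440.3, 431 and 327 CPM against 501, 514 and 440.4 CPM and lay just below GFI1-KI at the nearest libraries (-0.28 ± 0.20), and Rpl18 was at -0.26 ± 0.22 with overlap.

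**Figure D3:**
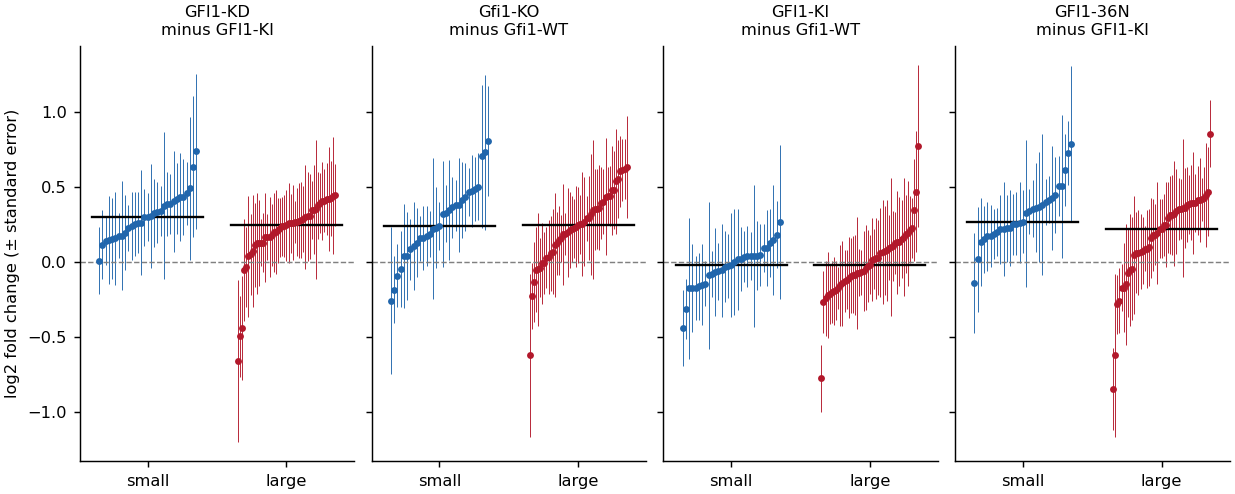
Fitted log2 fold change of 78 of the 80 abundant members (points, with the standard error as a bar), small subunit genes on the left and large subunit genes on the right of each panel, for the 4 comparisons; black lines are the medians of the points plotted. Most points lie above 0 in 3 panels and on both sides of 0 in GFI1-KI minus Gfi1-WT, and none passed the adjusted test.

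A test of any difference among the 5 genotypes gave no gene at an adjusted p of 0.05 in edgeR's quasi-likelihood test (0%; DESeq2 called 45 genes) and 6 members at an unadjusted p under 0.05 (7.06%, against 2.67% of all genes), among them Rpl7l1, Rps3a1, Rplp0, Rps3 and Rpl35. Their unadjusted p-values ran from 0.00386 for Rpl7l1 over 0.0109 for Rps3a1 and 0.0123 for Rplp0 upwards. In DESeq2 a likelihood-ratio test of any difference called 45 of the 13358 genes and 1 of the 85 members, Rpl7l1, with an adjusted p of 0.0204.

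Rpl7l1, a relative of Rpl7 whose yeast counterpart acts in the assembly of the large subunit, was at 387, 337 and 403 CPM in GFI1-KI and 407, 523 and 327 CPM in Gfi1-WT. It was at 274, 247 and 278 CPM in GFI1-KD, 265, 184 and 178 CPM in GFI1-36N and 345, 489 and 644 CPM in Gfi1-KO. All 6 GFI1-KD and GFI1-36N libraries lay below all 9 others, while Gfi1-KO and Gfi1-WT overlapped. Against GFI1-KI the log2 fold change was -0.85 ± 0.27 (SE) in GFI1-36N, with an unadjusted p of 0.00816 in edgeR's quasi-likelihood test, and -0.50 ± 0.27 in GFI1-KD. It was 0.23 ± 0.27 in Gfi1-KO against Gfi1-WT. Leaving out 1 library at a time kept the GFI1-36N value between -1.05 and -0.74 and the GFI1-KD value between -0.57 and -0.45. The median member lay above GFI1-KI in both genotypes, and relative to the median member of its own library Rpl7l1 had the second widest spread of genotype means, 1.19 log2 units, after Rpl13 with 1.42. Of the 80 abundant members, 70 had a spread under 0.5, with a median of 0.33, and the next widest after Rpl7l1 were Rpl22l1 (0.92), Rps12 (0.91), Rps3a1 (0.89) and Rplp0 (0.76).

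**Figure D4:**
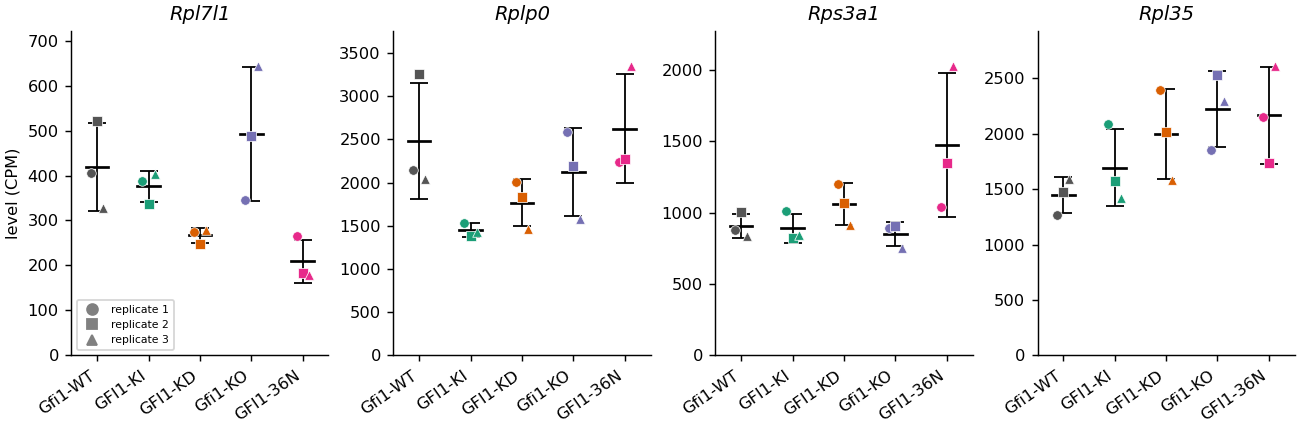
Level in CPM (axis from 0) of Rpl7l1, Rplp0, Rps3a1 and Rpl35 by genotype; points are libraries, and lines and bars are the mean and SD (n = 3). The Rpl7l1 libraries of GFI1-KD and GFI1-36N, 178 to 278 CPM, lie below those of the other genotypes, and the Rps3a1 level of GFI1-36N replicate 3, 2028 CPM, is above every other library.

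Paralogs were set beside their parents per length. Rpl22l1 was the only paralog above its parent, with a per-length level of 312.5% of that of Rpl22, which represses Rpl22l1 in mouse cells. The per-length ratio was 2.42, 3.17 and 3.24 in GFI1-KI and 1.21, 2.76 and 3.29 in GFI1-KD. It was 2.85, 3.73 and 3.75 in Gfi1-WT, 2.85, 4.26 and 4.39 in Gfi1-KO and 3.42, 3.15 and 4.67 in GFI1-36N. The first GFI1-KD library had the lowest and the third GFI1-36N library the highest ratio, and all 4 comparisons overlapped. In CPM, Rpl22l1 was at 399, 164 and 189 in GFI1-KI and 163, 221 and 170.5 in GFI1-KD, and its log2 fold change of -0.44 ± 0.35 became 0.07 without GFI1-KI replicate 1.

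Rps27l, a p53 target in human cells, was at 39.4% of Rps27 per length, with a ratio from 0.265 (Gfi1-WT replicate 2) to 0.639 (Gfi1-KO replicate 3). It was at 237, 399.5 and 509.8 CPM in Gfi1-KO and 161, 175 and 318 CPM in Gfi1-WT. The groups overlapped through the third Gfi1-WT and the first Gfi1-KO library. The log2 fold change of 0.81 ± 0.37 (SE) had an unadjusted p of 0.0471 in edgeR's quasi-likelihood test and an adjusted p of 1. Rps27 itself was at 566, 818 and 649.5 CPM against 361, 541 and 559 CPM (0.48 ± 0.24), without overlap.

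Rpl7l1 was at 15.7% of Rpl7 per length. Its ratio was 0.183, 0.178 and 0.208 in GFI1-KI, 0.106, 0.102 and 0.144 in GFI1-KD and 0.107, 0.109 and 0.060 in GFI1-36N. Both genotypes lay below GFI1-KI in every library, while Gfi1-WT (0.185, 0.244 and 0.131) and Gfi1-KO (0.162, 0.264 and 0.234) overlapped. The other relatives were rare: Rps4l was at 1.28% of Rps4x, Rps3a2 and Rps3a3 at 0.397 and 0.099% of Rps3a1, Rpl32l at 0.085% of Rpl32, Rpl6l at 0.063% of Rpl6, Rpl3l at 0.072% of Rpl3, Rpl39l at 0.033% of Rpl39 and Rpl10l at 0.001% of Rpl10. Rps12l1 was at 0. Rpl3l, known from skeletal and heart muscle, was above 0 in GFI1-KI replicate 3 with 12.4 CPM and in GFI1-KD replicate 2.

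**Figure D5:**
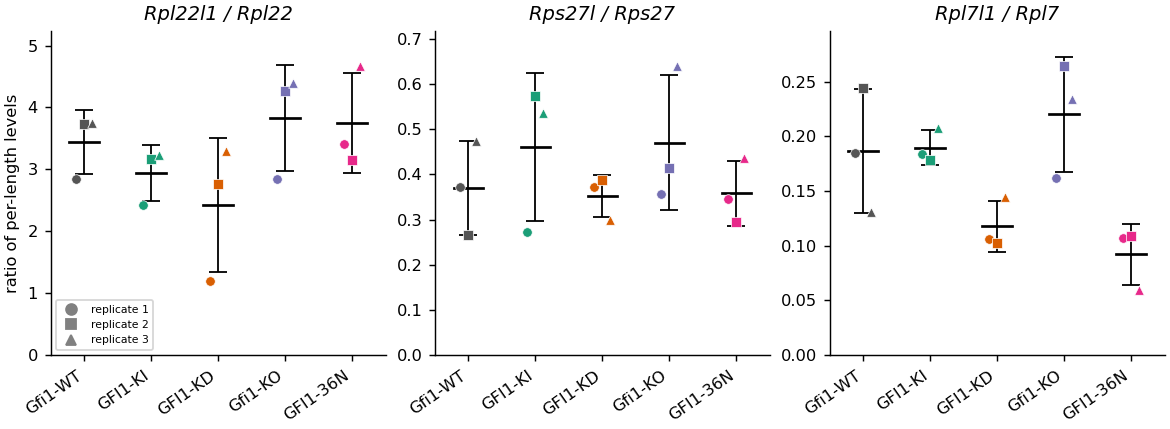
Ratio of the per-length level of a paralog to that of its parent (axis from 0) for Rpl22l1 and Rpl22, Rps27l and Rps27, and Rpl7l1 and Rpl7, by genotype; points are libraries, and lines and bars are the mean and SD (n = 3). The Rpl7l1 ratios of GFI1-KD and GFI1-36N lie at 0.060 to 0.144, below the 3 GFI1-KI ratios of 0.178 to 0.208, and the other 2 ratios overlap between the genotypes compared.

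By role, the 20 members mutated in Diamond-Blackfan anaemia, among them Rps19, Rps24, Rpl5 and Rpl11, were above 0 in 20 of 20 cases in GFI1-KD against GFI1-KI (median 0.28), in 19 in Gfi1-KO against Gfi1-WT (0.35), in 9 in GFI1-KI against Gfi1-WT (-0.02) and in 16 in GFI1-36N against GFI1-KI (0.24). The medians of all 85 members were 0.26, 0.23, -0.03 and 0.25. Rps19, the gene most often mutated in this anaemia, was at 1468, 1746 and 1386 CPM in Gfi1-KO and 882, 1317 and 1371 CPM in Gfi1-WT. The nearest libraries of the groups almost touched, and the log2 fold change was 0.37 ± 0.20.

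Rpl5 and Rpl11, which with 5S RNA bind Mdm2 and so stabilise p53 when ribosome assembly is disturbed, overlapped in all 4 comparisons, with log2 fold changes between -0.17 and 0.30. Rpl5 was at 177 CPM in GFI1-36N replicate 3 against 267 to 470.2 CPM in the other 14 libraries, so this library, the highest for 28 members, was the lowest for Rpl5. Of the 6 members linked to p53 (Rpl5, Rpl11, Rpl22, Rpl26, Rps27 and Rps27l), 6, 6, 4 and 3 were above 0 in GFI1-KD, Gfi1-KO, GFI1-KI and GFI1-36N against their controls, beside 78, 69, 39 and 71 of the 85 members, with medians of 0.24, 0.38, 0.07 and 0.15. None passed the adjusted test.

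Rplp1 and Rplp2, which bind Rplp0 as dimers, had log2 fold changes of 0.06 ± 0.27 and -0.06 ± 0.38 in GFI1-36N against GFI1-KI, where Rplp0 was at 0.86 ± 0.22, and 0.03 ± 0.27 and -0.07 ± 0.38 in GFI1-KI against Gfi1-WT, where Rplp0 was at -0.78 ± 0.22. In GFI1-KD against GFI1-KI, Rplp0, Rplp1 and Rplp2 were at 0.29 ± 0.22, 0.17 ± 0.27 and 0.08 ± 0.38. The difference between the stalk genes was not tested. The 6 exit tunnel members had medians of 0.26 in GFI1-KD, 0.35 in Gfi1-KO, 0.02 in GFI1-KI and 0.36 in GFI1-36N against their controls. Rps27a, made as a fusion with ubiquitin, was at 0.44 ± 0.25 and 0.42 ± 0.25 in GFI1-KD and Gfi1-KO. The 4 X-linked members (Rpl10, Rpl36a, Rpl39 and Rps4x) had medians between -0.09 and 0.27.

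Other genes of the translation machinery were read from fixed lists. The 4 ribosomal proteins whose symbols fall outside the rule were above 0 in 4, 3, 1 and 4 cases in GFI1-KD, Gfi1-KO, GFI1-KI and GFI1-36N against their controls, with medians of 0.15, 0.29, -0.16 and 0.37. Rack1, a small subunit scaffold among them, was at 0.51 in GFI1-KD against GFI1-KI with an unadjusted p of 0.0403 in edgeR. The list of genes other than ribosomal proteins whose transcripts are known for the pyrimidine motif, mostly translation factors but also Npm1, Naca and Tpt1, had 18 genes tested, whose motif was not checked here. They had medians of 0.18, 0.11, -0.26 and 0.20, with 15, 11, 5 and 12 above 0. In this list Npm1 was at -0.51 in GFI1-KI against Gfi1-WT, with an unadjusted p of 0.0035 in edgeR. Eif3e was at 0.85 in GFI1-36N against GFI1-KI, with an unadjusted p of 0.0065 in edgeR. The 18 genes that control translation and transcription of ribosomal proteins had medians of -0.16, 0.08, 0.17 and -0.61. Among them Myc, which drives ribosome production, was at -1.08 in GFI1-KD against GFI1-KI with an unadjusted p of 0.0193 in edgeR. Myc was also lower in Gfi1-KO against Gfi1-WT (-0.79, unadjusted p of 0.0708) and in GFI1-36N against GFI1-KI (-0.77, 0.0798). It was at 0.45 in GFI1-KI against Gfi1-WT. The 13 assembly chaperones tested had medians of 0.29, 0.03, -0.60 and -0.08. The median standard error of a fold change was 1.37 to 1.39 in the control list and 1.07 to 1.09 in the chaperones. It was 0.25 in the members, so the medians of the control and chaperone lists are far less precise. After adjustment none of these genes passed.

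Isoforms and pseudogene rows were read as estimates, without a test. Protein-coding transcripts held 90.0% of the member counts, retained introns 4.88%, processed transcripts 3.42% and transcripts marked for nonsense-mediated decay 1.67%. Single members differed. Transcripts not marked protein coding held 63.8% of the counts of Rpl13a, 44.6% of Rpl22, 44.1% of Rps27l, 35.4% of Rpl22l1 and 34.0% of Rps27. They held 7.07% for Rpl35, 0.028% for Rplp0, 0.0023% for Rpl7l1 and 0% for Rps3a1. The level of Rpl13a and the Rpl22l1 and Rps27l ratios therefore rest in part on those assignments. The -ps rows of 64 members held under 1% of the summed parent and pseudogene counts for 48 of them and at least 10% for 6: Rpl10 (56.7%), Rpl9 (37.8%), Rps2 (32.8%), Rpl15 (20.5%), Rpl36 (12.1%) and Rpl36a (12%). The counts of these 6 members are uncertain to that extent.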

How the data were processed

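The authors ran Salmon 1.9.0 on single-end reads against murine cDNA (Ensembl release 102, GRCm38; k-mer 31) and mapped transcripts to symbols with annotables 0.1.91. The deposited values are estimated counts (length-scaled TPM), per gene symbol and per transcript, for the 15 libraries of 5 genotypes. They were rounded to whole numbers, and the row with a blank symbol (0.0068 to 0.072% of a library) was left out. Fold changes and p-values of the authors were not used.

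The 15 libraries were fitted together with genotype as the only term in edgeR 4.0.16 (R 4.3.3; TMM factors, quasi-likelihood F test with 10 residual degrees). Of 35533 genes, 13358 passed the count filter (minimum count 10, minimum total 15), and p-values were adjusted over these with the Benjamini-Hochberg method at 0.05. The common coefficient of biological variation was 1.39. Sums over members are given without a test, since the members were chosen with earlier results known. Per-length levels divided transcript counts by annotated lengths (GENCODE, GRCm38), which 115895 of 117135 transcripts had (99.6% of counts). On simulated counts, the fitted fold changes were required to be near those put in, at a spread set below that of these data. That requirement does not give the power of the test at the spread of these data. Counts were also simulated at the fitted spread, without such a requirement, and the numbers called there are not reported here.

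Members named are the 3 with the lowest p in each direction of each comparison and in the test over 5 genotypes, paralogs beside their parents, the 5 highest and 5 lowest per length and those on fixed role lists. Some genes that this rule would name are not reported here. Members and lists were chosen with earlier results of these data known. The columns of the tables carry running numbers that match those of the sample titles (15 of 15), which no text states. Deviations from the group means correlated above 0.1 in 1 of 30 pairs of libraries that share a number, so the numbers were not used as pairs. Alternatives were other scalings, no filter, DESeq2 1.42.0, limma-trend (limma 3.58.1), a replicate block, pseudogene rows added to their parents, 2 genotypes at a time, each replicate left out and, chosen after seeing the data, 2 libraries left out.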

Additional observations from a re-analysis of the deposited data

How the results depend on the processing

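Member medians kept their direction in GFI1-KD, Gfi1-KO and GFI1-36N against their controls under every alternative run. DESeq2 called 181 genes for GFI1-KD, 364 for GFI1-36N (both against GFI1-KI), 196 for Gfi1-KO and 146 for GFI1-KI (both against Gfi1-WT), 199 for the difference of effects and 45 for any difference, 1 of these last a member; limma-trend called 2 genes in GFI1-36N minus GFI1-KI and 1 in the test of any difference, and the fit of 2 genotypes 1 gene in GFI1-36N minus GFI1-KI, where edgeR called 0 in the fit of 15 libraries. With 1 replicate left out, edgeR called 0 to 1 genes for Gfi1-KO and for the difference of effects, the 1 gene in each case without Gfi1-KO replicate 1. The cause was not tested.

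Members at an unadjusted p under 0.05 in GFI1-KD minus GFI1-KI numbered 1 with median-ratio factors, with no filter and with DESeq2, 4 with upper-quartile factors and with 2 genotypes, and 0 to 11 with 1 replicate left out. In Gfi1-KO minus Gfi1-WT they numbered 5 with median-ratio factors and with library totals, 7 with no filter, 6 with 2 genotypes and 3 to 15 with 1 replicate left out. In GFI1-KI minus Gfi1-WT they numbered 1 with median-ratio factors, DESeq2 and 2 genotypes, and 1 to 3 with 1 replicate left out. In GFI1-36N minus GFI1-KI they numbered 18 with upper-quartile factors, 6 with 2 genotypes and 3 to 21 with 1 replicate left out. The difference of effects had 1 with library totals and 0 to 1 with 1 replicate left out, and the test of any difference 10 with upper-quartile factors and 3 to 10. With the replicate block, 6 members had such a p in Gfi1-KO minus Gfi1-WT and 1 in GFI1-KI minus Gfi1-WT, and the block changed no adjusted call. Without GFI1-36N replicate 3 and GFI1-KD replicate 1, chosen after seeing the data, the numbers were 0, 13, 1, 3, 0 and 3, and 28 members had a difference of effects above 0.

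With 1 replicate left out, 9 to 64 members were above 0 in GFI1-KI minus Gfi1-WT and 25 to 64 in the difference of effects, and the share ratio was 1.11 to 1.28 for GFI1-KD and 1.10 to 1.26 for GFI1-36N. The ratio of the medians of small and large members was 1.06, 0.996 and 1.16 times that of the control in GFI1-KD, GFI1-KI and GFI1-36N, against 1.02, 1.05 and 1.06 for sums. Scaling by library totals put the median of all genes at -0.12 in Gfi1-KO minus Gfi1-WT and GFI1-36N minus GFI1-KI and that of members at 0.14 and 0.19. Of 38 named fold changes 29 kept their sign throughout. Rps27l in GFI1-KD minus GFI1-KI was -0.020 without the 2 libraries and -0.018 to 0.39 with 1 left out, and Rps3a1 in GFI1-KI minus Gfi1-WT 0.025 with library totals and -0.13 to 0.080. With 1 left out, the ranges that crossed 0 were -0.67 to 0.072 (Rpl22l1, GFI1-KD minus GFI1-KI), -0.36 to 0.056 (Rplp0) and -0.12 to 0.028 (Rps3a1) in Gfi1-KO minus Gfi1-WT, and -0.071 to 0.69 (Rpl22), -0.30 to 0.063 (Rpl7l1), -0.38 to 0.36 (Rpl22l1) and -0.032 to 0.53 (Rps27l) in GFI1-KI minus Gfi1-WT.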
